A study of Mus musculus with 5 samples.

Results

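The 4 Hox clusters were examined for 5-methylcytosine (5mC) and 5-hydroxymethylcytosine (5hmC) in mouse embryonic stem cells. The regions were the mm9 windows HoxA on chromosome 6 at 52104001–52218000 (114 kb), HoxB on chromosome 11 at 96050001–96232000 (182 kb), HoxC on chromosome 15 at 102750001–102870000 (120 kb) and HoxD on chromosome 2 at 74495001–74605000 (110 kb). The rule for them uses positions and genes and no measured value, but earlier results of these data were known when the clusters were picked. Together they make up 526 of the 2638957 bins of 1 kb on chromosomes 1 to 19 and X, and the 200 kb on each side of each window (1600 bins) served as the local comparison. The windows carry 38 listed genes, 10 each in HoxA and HoxB and 9 each in HoxC and HoxD.

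The 5 libraries, 1 of each kind, were hMeDIP with an antibody to 5hmC (18519740 reads on these chromosomes), MeDIP with an antibody to 5mC (10442811), MethylCap eluates at 600 mM (10462783) and 800 mM NaCl (7507520), and an input (18676265). The MeDIP, hMeDIP and MethylCap DNA came from E14 gene-trap clones at passages 11 to 14, which the labels do not name one by one. DNA for the input came from chromatin of TNG-A, E14 cells in which Nanog carries an EGFP reporter, so values over input also compare lines. The 5mC antibody and the GST-tagged methyl-CpG binding domain (MBD) were from Diagenode and the 5hmC antibody from Active Motif. Each immunoprecipitation used 2 µg of antibody, and the capture used 2 µg of MBD protein on 1 µg of DNA. The medium was feeder-free with serum and leukaemia inhibitory factor throughout. With 1 library per group, each comparison is between libraries, no p-value can be given, and bracketed ranges are exact 95% intervals that cover counting error only.

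Hox genes encode homeodomain transcription factors that assign position along the body axis. Within a cluster their order on the chromosome follows the order in which they act, from anterior genes of low paralogue number to posterior genes of high number. In embryonic stem cells most of them are silent and lie in CpG-rich chromatin held by Polycomb complexes, a state that is usually described as free of dense DNA methylation. TET enzymes oxidise 5mC to 5hmC, and both marks sit mostly on the cytosine of CpG dinucleotides. MeDIP and hMeDIP use antibodies on single-stranded DNA, whereas MethylCap uses the methyl-CpG binding domain of a protein on double-stranded DNA and releases more densely methylated fragments at higher salt.

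To show how much substrate for either mark the start sites of these genes offer, CpG dinucleotides were counted in the RefSeq promoters of GRCm38.p6, each running from 250 bases before to 50 after a start. Entries were present for 22 of the 38 genes, with 24 starts. Hoxa4, Hoxb2, Hoxb3, Hoxb5, Hoxb6, Hoxb7, Hoxb9, Hoxb13, Hoxc5, Hoxc6, Hoxc8, Hoxc9, Hoxc10, Hoxc11, Hoxc12 and Hoxc13 had no entry. The 24 starts held 4 to 45 CpG with a median of 14.5, and 20 of the 24 were above 7, the median of all 32851 promoters in the table, of which 48.7% were above it. Below, the promoter with the most and the one with the fewest CpG is printed for each cluster (HoxC has a single entry), 5′ to 3′ as the table gives them on the gene's strand, with every CpG in capitals.

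Hoxa13 promoter (GRCm38.p6 chr6:52260831-52261130, minus strand): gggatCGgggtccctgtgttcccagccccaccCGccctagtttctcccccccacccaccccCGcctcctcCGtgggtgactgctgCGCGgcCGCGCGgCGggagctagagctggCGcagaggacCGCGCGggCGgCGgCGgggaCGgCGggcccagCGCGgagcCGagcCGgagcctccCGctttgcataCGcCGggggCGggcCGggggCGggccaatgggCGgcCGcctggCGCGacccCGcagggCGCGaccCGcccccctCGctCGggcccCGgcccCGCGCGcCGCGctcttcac
Hoxa9 promoter (GRCm38.p6 chr6:52227321-52227620, minus strand): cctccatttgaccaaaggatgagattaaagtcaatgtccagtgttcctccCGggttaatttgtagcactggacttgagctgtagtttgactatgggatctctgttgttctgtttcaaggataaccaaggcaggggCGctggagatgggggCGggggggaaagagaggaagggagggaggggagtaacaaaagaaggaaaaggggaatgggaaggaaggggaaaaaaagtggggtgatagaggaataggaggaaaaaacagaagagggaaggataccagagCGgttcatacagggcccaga
Hoxb4 promoter (GRCm38.p6 chr11:96318017-96318316, plus strand): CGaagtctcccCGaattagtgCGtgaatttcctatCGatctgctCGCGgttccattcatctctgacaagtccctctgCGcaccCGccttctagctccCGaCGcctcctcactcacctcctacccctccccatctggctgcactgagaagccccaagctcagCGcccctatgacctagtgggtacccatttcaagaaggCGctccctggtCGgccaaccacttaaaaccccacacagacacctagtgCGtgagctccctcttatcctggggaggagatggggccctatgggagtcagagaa
Hoxb1 promoter (GRCm38.p6 chr11:96365508-96365807, plus strand): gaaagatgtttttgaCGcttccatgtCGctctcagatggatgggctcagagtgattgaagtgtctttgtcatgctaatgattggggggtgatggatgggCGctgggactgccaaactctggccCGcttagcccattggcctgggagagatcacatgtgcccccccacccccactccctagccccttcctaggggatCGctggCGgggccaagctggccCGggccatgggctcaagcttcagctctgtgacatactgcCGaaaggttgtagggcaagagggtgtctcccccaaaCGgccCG
Hoxc4 promoter (GRCm38.p6 chr15:103034145-103034444, plus strand): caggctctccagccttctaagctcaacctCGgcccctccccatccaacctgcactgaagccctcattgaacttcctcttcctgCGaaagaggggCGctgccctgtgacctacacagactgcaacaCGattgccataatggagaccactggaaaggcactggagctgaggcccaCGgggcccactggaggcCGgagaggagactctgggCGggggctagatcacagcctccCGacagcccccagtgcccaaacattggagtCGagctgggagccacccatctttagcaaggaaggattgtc
Hoxd13 promoter (GRCm38.p6 chr2:74667975-74668274, plus strand): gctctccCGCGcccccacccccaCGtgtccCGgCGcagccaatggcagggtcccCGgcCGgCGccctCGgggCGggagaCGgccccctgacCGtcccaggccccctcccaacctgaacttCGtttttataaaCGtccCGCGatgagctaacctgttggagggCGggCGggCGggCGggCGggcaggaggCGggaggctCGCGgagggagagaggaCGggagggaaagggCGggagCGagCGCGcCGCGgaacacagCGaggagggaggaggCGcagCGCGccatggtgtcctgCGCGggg
Hoxd4 promoter (GRCm38.p6 chr2:74721728-74722027, plus strand): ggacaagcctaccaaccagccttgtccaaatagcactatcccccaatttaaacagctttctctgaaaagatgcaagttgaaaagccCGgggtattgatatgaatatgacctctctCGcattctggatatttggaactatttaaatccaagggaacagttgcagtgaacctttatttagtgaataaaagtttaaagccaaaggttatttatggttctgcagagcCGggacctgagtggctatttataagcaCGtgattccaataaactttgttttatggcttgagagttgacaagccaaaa

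The promoter of Hoxa13, a posterior gene needed for distal limb and genital tubercle development, held 45 CpG, a number that 1.93% of all promoters reach. Hoxd13, its paralogue in HoxD, held 37 (5.58%). Hoxa9, Hoxd4 and the first of the 2 listed starts of Hoxd11 held 4 each, as many as or fewer than 68.6% of promoters. Hoxb4 held 14, Hoxb1, the anterior hindbrain gene of its cluster, 10, and Hoxc4 9. CpG content thus ran from 4 to 45 within HoxA and from 4 to 37 within HoxD, where all promoters of the table ran from 0 to 67. These coordinates are of GRCm38.p6 and cannot be set against the mm9 positions used elsewhere, so reads were not assigned to single promoters or genes.

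**Figure D1:**
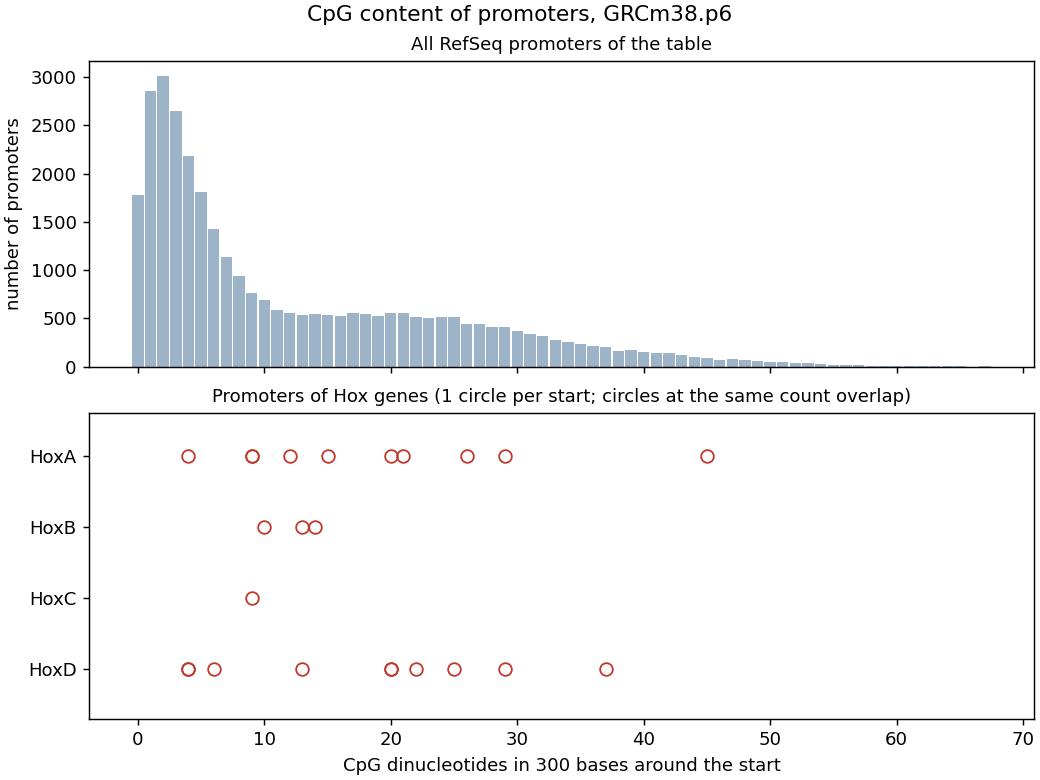
Number of CpG dinucleotides in promoters of 300 bases (x axis), as a histogram over the 32851 promoters of the table (top) and with 1 circle per Hox start in each cluster (bottom). The Hox starts lie between 4 and 45, HoxA spanning this whole range and HoxD reaching 37.

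The question the libraries address is how 5mC and 5hmC are distributed, and in the Hox clusters the read densities of the antibodies went opposite ways. Before division by input, the 5hmC antibody found more reads per kb in every window than in its flanks, and the 5mC antibody fewer. In HoxA, the window held 0.926 hMeDIP reads per kb after scaling to library depth (RPM per kb), against 0.332 with MeDIP, 0.501 and 0.575 at 600 and 800 mM and 0.411 in input. hMeDIP was therefore by far the densest library there, and MeDIP was below input.

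In HoxB the same densities were 0.868 with hMeDIP, 0.493 with MeDIP, 0.550 at 600 mM, 0.592 at 800 mM and 0.422 in input. HoxC had 0.807 with hMeDIP, 0.333 with MeDIP, 0.356 at 600 mM, 0.352 at 800 mM and 0.463 in input. HoxD had 0.751 with hMeDIP, 0.276 with MeDIP, 0.386 at 600 mM, 0.476 at 800 mM and 0.378 in input. Across the 4 windows hMeDIP varied little, from 0.751 to 0.926, and did not overlap with any other library, whose densities ran from 0.276 to 0.592. HoxB stood out by its MeDIP density and HoxC by its low density at 800 mM. At 600 mM HoxC was also the lowest, but its Poisson interval (0.324 to 0.391) overlaps that of HoxD (0.351 to 0.423).

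**Figure D2:**
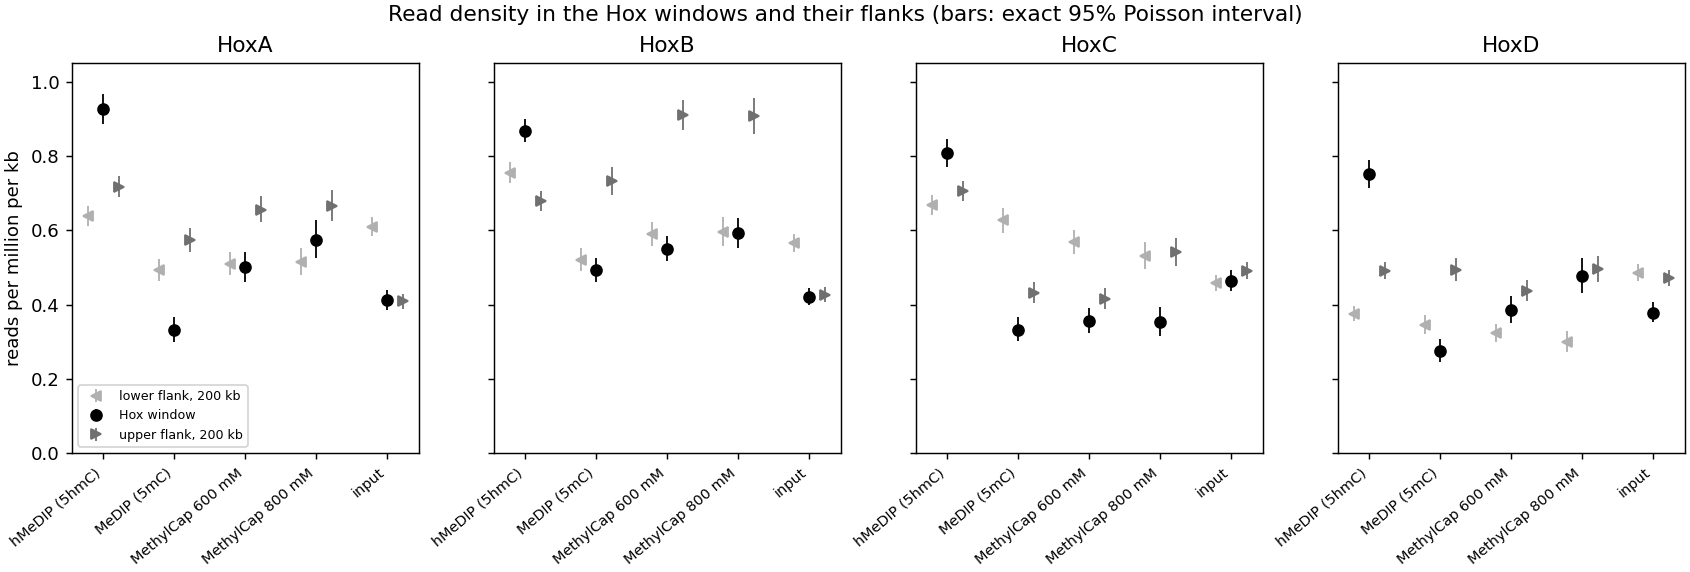
RPM per kb (y axis) of the 5 libraries (x axis) in each Hox window (black circles) and in its lower and upper 200 kb flank (grey triangles), with exact 95% Poisson intervals. The hMeDIP circle lies above both flanks in all 4 clusters, and the MeDIP circle below both.

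Summed over the 4 windows, hMeDIP reads were 1.34-fold as dense as in the flanks (1.31 to 1.38). MeDIP reads were 0.714-fold (0.680 to 0.749), reads of the 600 mM eluate 0.836-fold (0.800 to 0.874) and reads of the 800 mM eluate 0.896-fold (0.852 to 0.942). Input itself was at 0.858-fold (0.828 to 0.888), so the windows were somewhat poorer in input reads too. Relative to input, the change from flank to window was 1.56-fold for hMeDIP (1.50 to 1.63), 0.833-fold for MeDIP (0.785 to 0.884), 0.975-fold at 600 mM (0.922 to 1.03) and 1.04-fold at 800 mM (0.983 to 1.11). Both MethylCap intervals include 1, so the sum over the clusters showed no difference between window and flanks once input was taken into account. Single clusters differed from their flanks in opposite directions, as given below.

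The clusters differed in how they stood out from their surroundings. HoxD had the flanks with the fewest reads over input in all 4 enriched libraries, and its hMeDIP signal over input rose from 0.904-fold in the flanks to 1.98-fold in the window, a change of 2.19-fold (1.99 to 2.43). In HoxA the rise was from 1.33-fold to 2.25-fold, in HoxB from 1.44-fold to 2.06-fold, and in HoxC from 1.45-fold to 1.74-fold, the smallest of the 4 at 1.20-fold (1.10 to 1.31). For MeDIP the drop was largest in HoxC, from 1.11-fold over input in the flanks to 0.718-fold in the window (a change of 0.645-fold, 0.567 to 0.732), and it was 0.928-fold in HoxB with an interval of 0.841 to 1.02 that includes no change. The MethylCap eluates went down in HoxC, to 0.741-fold of the flank value at 600 mM (0.654 to 0.840) and 0.672-fold at 800 mM (0.583 to 0.774). In the upper flank of HoxC, the segment at 103020001–103030000 held 196 reads at 800 mM against 32 at 600 mM. How far it sets the 800 mM value was not tested. In HoxB the 600 mM eluate also went down, to 0.864-fold (0.787 to 0.949). The 800 mM eluate of HoxB was at 0.928-fold, with an interval of 0.837 to 1.03 that includes no change. The eluates went up in HoxD, to 1.29-fold (1.13 to 1.47) and 1.52-fold (1.32 to 1.74), where MeDIP went down to 0.832-fold (0.719 to 0.961). In HoxA the 800 mM eluate went up to 1.21-fold (1.06 to 1.37) and MeDIP down to 0.771-fold (0.675 to 0.879), while the 600 mM eluate was at 1.06-fold with an interval of 0.945 to 1.19 that includes no change. Without division by input, the window density of HoxD over its flanks was 0.658-fold in MeDIP (0.582 to 0.742), 1.02-fold at 600 mM (0.914 to 1.13) and 1.20-fold at 800 mM (1.07 to 1.34). In HoxA it was 0.623-fold in MeDIP (0.558 to 0.694), 0.858-fold at 600 mM (0.784 to 0.939) and 0.975-fold at 800 mM (0.880 to 1.08). The direct densities thus rose only in the 800 mM eluate of HoxD among these, and in HoxA both MeDIP and the 600 mM eluate were below the flanks.

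The flanks of 1 cluster were not alike. Input was denser in the lower flank of HoxA (0.609 RPM per kb) than in the window (0.411) or the upper flank (0.409), and a similar step was present at HoxB (0.566, 0.422 and 0.426). hMeDIP over input was 1.05-fold in the lower flank of HoxA and 1.76-fold in the upper one. Against the lower flank alone, MeDIP over input was level in HoxA (0.807 in the window against 0.809) and HoxD (0.730 against 0.710). In HoxB it was higher in the window (1.17 against 0.918), and in HoxC lower (0.718 against 1.37). Reads of some enriched libraries were also fewer in some lower flanks than in the upper ones. In HoxB this held for MeDIP (0.519 against 0.732 RPM per kb), at 600 mM (0.589 against 0.909) and at 800 mM (0.595 against 0.908). There hMeDIP went the other way, with 0.754 in the lower flank against 0.679 in the upper. The upper flank of HoxB was the densest in 5mC, at 1.72-fold over input with MeDIP, 2.13-fold at 600 mM and 2.13-fold at 800 mM. How far the input of another line sets these values was not tested, and the direct comparison of the antibodies below does not use it.

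Set directly against each other, the 5hmC antibody outweighed the 5mC antibody in every Hox window. Each library is scaled to its own total, so a ratio above 1 means a larger share of hMeDIP than of MeDIP reads. It does not compare the amounts of the marks. Depth-scaled hMeDIP reads were 2.79-fold MeDIP reads in HoxA (1955 against 395 reads, interval 2.50 to 3.12), 2.72-fold in HoxD (1529 against 317, 2.41 to 3.08), 2.42-fold in HoxC (1793 against 417, 2.18 to 2.70) and 1.76-fold in HoxB (2924 against 937, 1.63 to 1.90). In the flanks of the same clusters the ratio was 1.27, 1.03, 1.30 and 1.15. The window exceeded its flanks 2.19-fold in HoxA (1.95 to 2.48), 2.64-fold in HoxD (2.30 to 3.03), 1.87-fold in HoxC (1.66 to 2.10) and 1.54-fold in HoxB (1.41 to 1.68).

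Of the 6 pairs of clusters, the 3 with HoxB differed beyond counting error, and the 3 among HoxA, HoxC and HoxD did not. HoxA was 1.59-fold HoxB (1.39 to 1.81), while HoxA over HoxC was 1.15-fold (0.986 to 1.34), HoxA over HoxD 1.03-fold (0.869 to 1.21) and HoxC over HoxD 0.891-fold (0.756 to 1.05). An interval that includes 1 does not show that 2 clusters are alike.

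The Hox ratios were at the top of the range of the genome. All autosomes were tiled with windows of the length of each cluster, leaving out the Hox windows and tiles with under 3 input reads per kb. The median ratio of the antibodies over the 20504 tiles of 114 kb was 1.01, the central 95% ran from 0.677 to 1.50, and none reached the 2.79 of HoxA. None of 21241 tiles reached the value of HoxD either, 1 of 19482 reached that of HoxC and 22 of 12866 (0.171%) reached that of HoxB. The highest other tile of 114 kb, on chromosome 7 at 140220001–140334000, was at 2.63 (2.36 to 2.93), and its interval overlaps that of HoxA. The next was on chromosome 13 at 44802001–44916000, at 2.57, and the tile above HoxC was on chromosome 1 at 183840001–183960000, at 2.61. Hox windows are placed on the clusters, whereas tiles fall at fixed positions and can cut through a region, and what this adds to the rank was not tested.

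The high ratio went with a fairly high 5hmC signal and a 5mC signal in the middle of the range. For hMeDIP over input, 4.50% of tiles were at or above HoxA, 6.10% at or above HoxB, 7.66% at or above HoxD and 11.9% at or above HoxC. For MeDIP over input, 53.8% of tiles were at or above HoxA, 34.1% at or above HoxB, 58.8% at or above HoxD and 59.9% at or above HoxC. The MethylCap eluates were likewise in the middle of the range, with 30.4 to 50.0% of tiles at or above the Hox windows at 600 mM and 27.0 to 48.7% at 800 mM. No Hox window was thus at the low end of the genome for a 5mC readout over input.

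**Figure D3:**
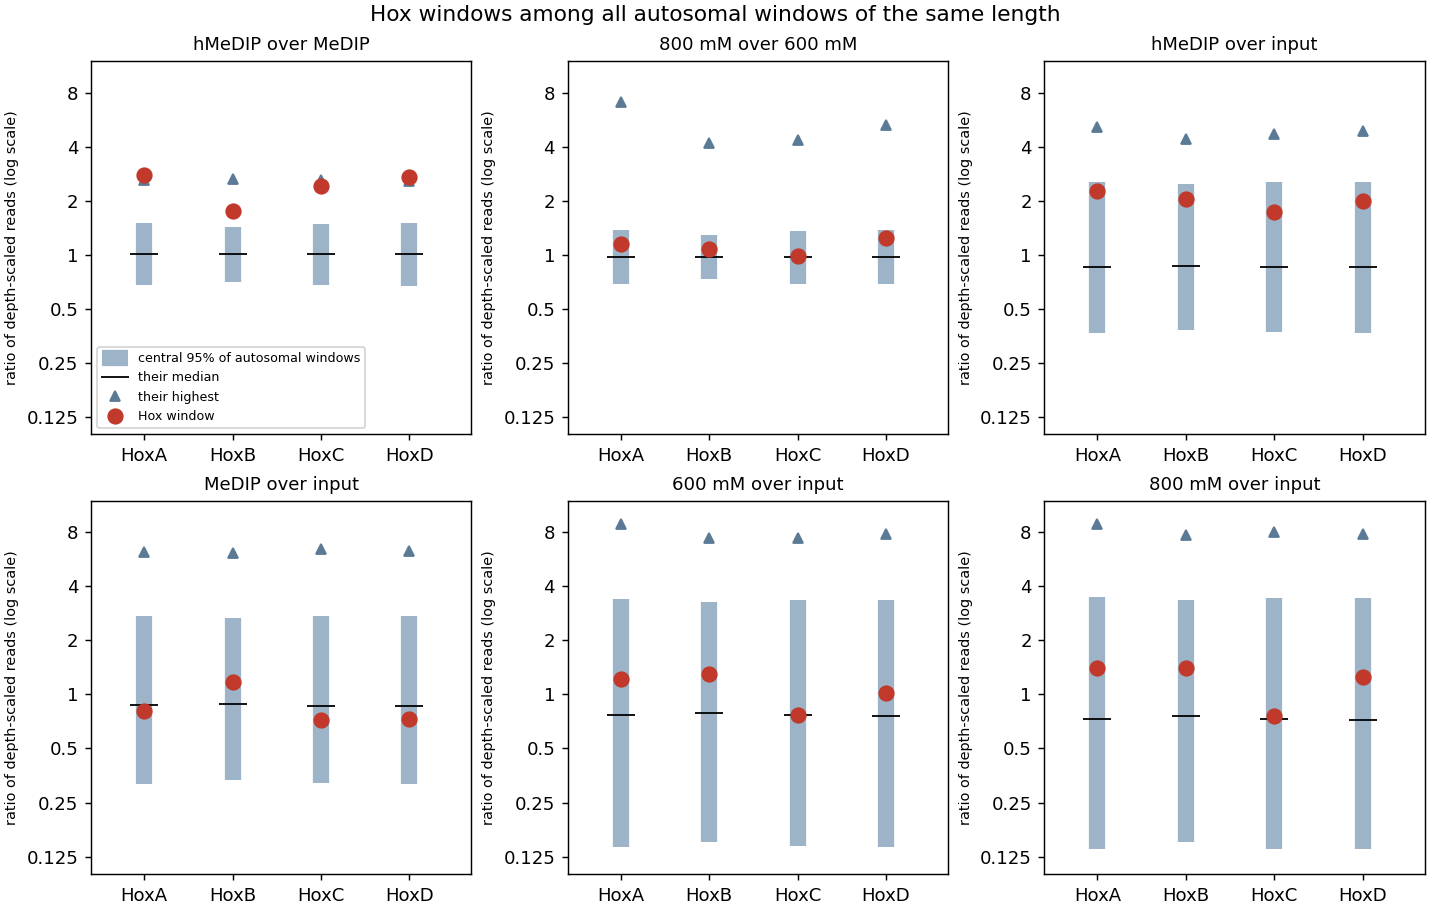
Ratios of depth-scaled reads (y axes, log scale) in the 4 Hox windows (red circles) against all autosomal windows of the same length, given by their central 95% (bars), median (lines) and highest value (triangles). The Hox windows lie above the bar for hMeDIP over MeDIP and inside it in the other 5 panels.

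Set against the MBD capture in place of the 5mC antibody, the 5hmC antibody was also higher in the windows, but the Hox values were less unusual. hMeDIP was 1.85-fold the 600 mM eluate in HoxA (1.69 to 2.03), 1.58-fold in HoxB (1.47 to 1.69), 2.27-fold in HoxC (2.04 to 2.52) and 1.95-fold in HoxD (1.75 to 2.17), against 1.16, 0.957, 1.40 and 1.14 in the flanks. Of the tiles, 20.6, 28.2, 11.4 and 18.5% were at or above these values. The 5mC antibody was low relative to the MBD capture in HoxA, at 0.663-fold the 600 mM eluate (0.582 to 0.754), and in HoxD, at 0.715-fold (0.617 to 0.828), with 98.4% and 96.3% of tiles at or above them. It was at 0.897-fold in HoxB and 0.935-fold in HoxC. In the flanks it was at 0.914 (HoxA), 1.11 (HoxD), 0.835 (HoxB) and 1.07-fold (HoxC). The contrast of the antibodies in HoxA and HoxD therefore went with a MeDIP signal that was low for the amount of DNA the MBD captured. The libraries hold no pulldown without antibody or MBD, so unspecific binding was not tested.

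Along each window the excess of depth-scaled hMeDIP over MeDIP reads was broad rather than held by single sites. In segments of 10 kb counted from the lower end (the last of HoxA and HoxB being 4 and 2 kb), hMeDIP exceeded MeDIP in 12 of 12 segments of HoxA, 12 of 12 of HoxC, 11 of 11 of HoxD and 17 of 19 of HoxB. The interval lay above 1 in 12, 11, 11 and 14 of them. In the flanks the ratio was above 1 in 31, 29, 22 and 26 of 40 segments around HoxA, HoxC, HoxD and HoxB, with the interval above 1 in 13, 21, 6 and 15. The median segment was at 3.14 in HoxA, 2.87 in HoxC, 3.02 in HoxD and 2.41 in HoxB, and at 1.21, 1.49, 1.03 and 1.21 in the flanks.

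**Figure D4:**
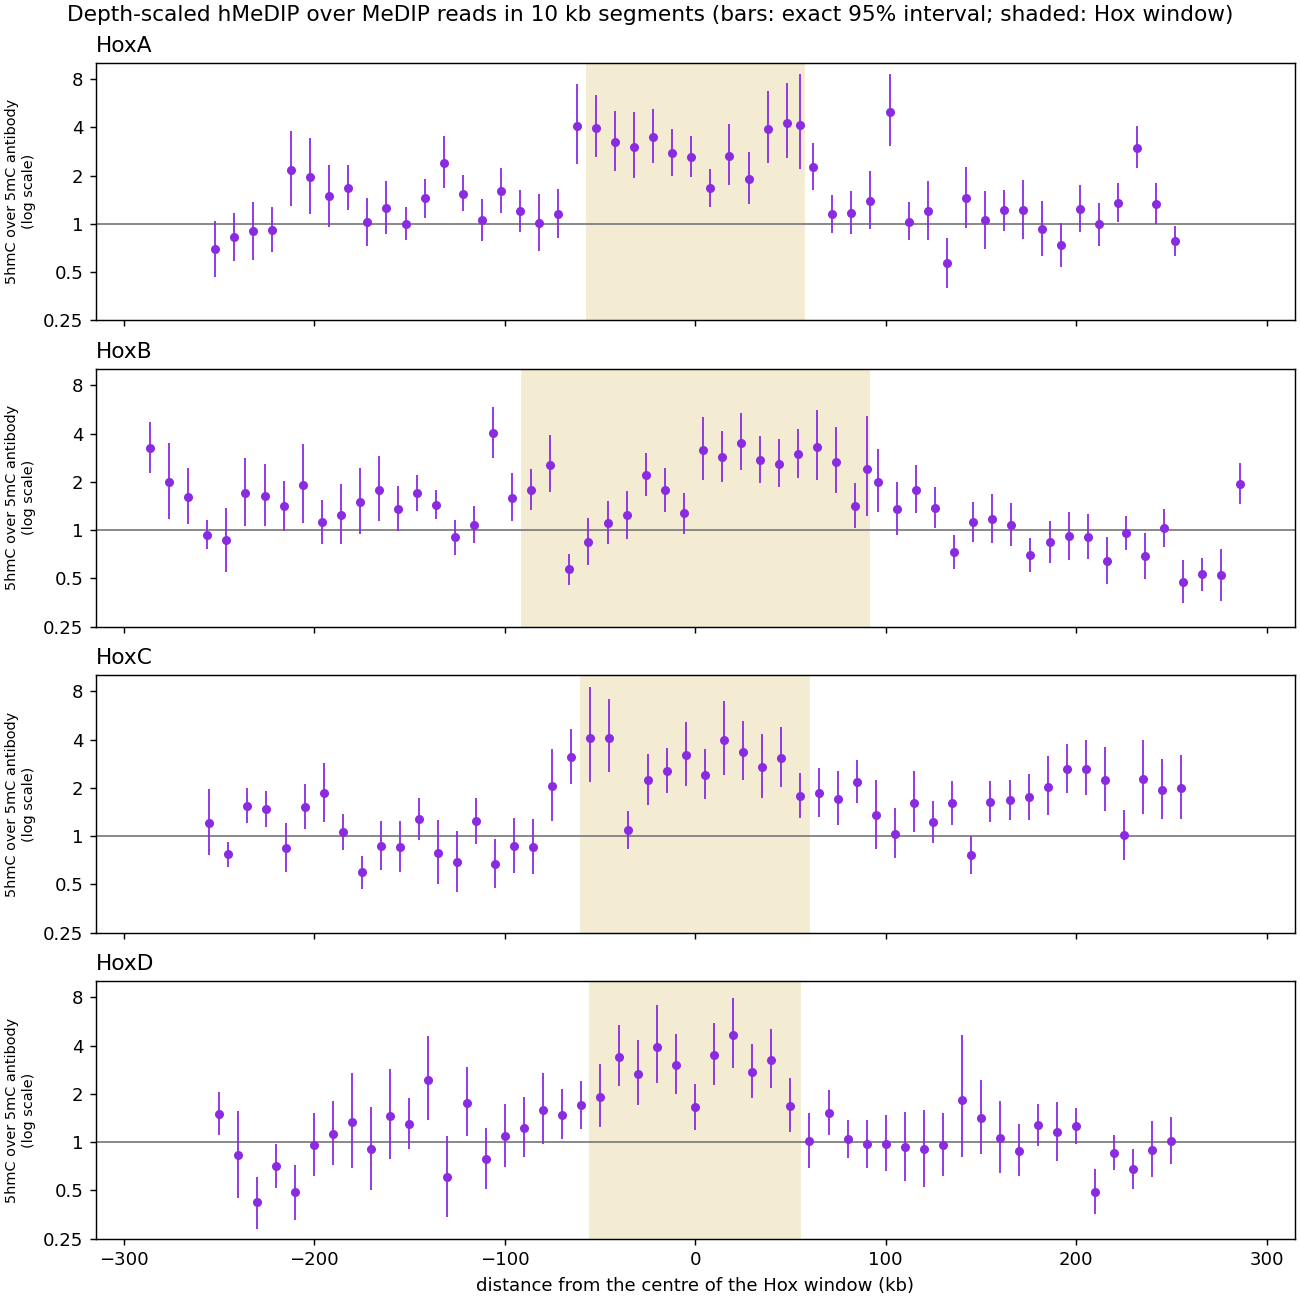
Depth-scaled hMeDIP over MeDIP reads (y axis, log scale) in 10 kb segments against the distance from the centre of each Hox window (x axis, kb), with exact 95% intervals and the window shaded. In HoxA, HoxC and HoxD all shaded segments lie above 1, while HoxB has a stretch near or below 1 in its lower part, with its lowest segment at 0.568.

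The genes of HoxA run from Hoxa2 at the lower end to Hoxa13 at the upper end, by their order in the RefSeq annotation. The ratio was lowest in the middle of the window, at 1.67 on 52164001–52174000 (219 hMeDIP and 74 MeDIP reads). It was highest near the upper end, at 4.28 (2.57 to 7.57) on 52204001–52214000 (129 and 17). At the lower end, the segment at 52104001–52114000 was at 3.99 (2.62 to 6.34), an overlapping interval, so the ends were not told apart. The segment with most hMeDIP reads, at 52154001–52164000, held 269 against 58 with MeDIP, 77 at 600 mM, 82 at 800 mM and 86 in input. The excess of hMeDIP over MeDIP did not stop at the lower edge, since the first 10 kb below the window were at 4.06 (2.36 to 7.50). The first 10 kb above it were at 2.27 (1.63 to 3.22), and a segment at 52258001–52268000 in the upper flank was higher than any in the window, at 4.98 (3.05 to 8.62).

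HoxB runs the other way, from the posterior gene Hoxb13 at the lower end through Hoxb9 to Hoxb1 at the upper end, and its lower part differed from the rest. The segment at 96070001–96080000 held 155 hMeDIP and 154 MeDIP reads, a ratio of 0.568 (0.451 to 0.714). The next, at 96080001–96090000, was at 0.846 (0.607 to 1.19). These were the only 2 of the 54 window segments below 1. From 96140001 to 96220000, 8 segments in a row were at 2.58 to 3.51, in the range of the other clusters. The excess of hMeDIP did not stop at the edges of HoxB. The first 10 kb below the window were at 1.60 (1.14 to 2.28) and the first 10 kb above it at 2.00 (1.30 to 3.20). A segment at 96030001–96040000 in the lower flank was higher than any in the window, at 4.01 (2.81 to 5.89).

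When each window was divided at its midpoint, a step chosen after the values were seen, the lower 91 kb of HoxB were at 1.28 (1.16 to 1.41) and the upper 91 kb at 2.65 (lower end of the interval 2.35). The upper part exceeded the lower 2.07-fold (1.78 to 2.42). In HoxA the upper part was 0.812-fold the lower (0.650 to 1.01), in HoxC 1.19-fold (0.956 to 1.48) and in HoxD 0.914-fold (0.710 to 1.18), all with intervals that include 1. The lower ratio of HoxB as a whole thus rested on its Hoxb13-side part, and its upper part was close to the 2.42 to 2.79 of the other windows.

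HoxC and HoxD both run from their 13 gene at the lower end to Hoxc4 and Hoxd1 at the upper end. In HoxC the lowest segment, at 102770001–102780000, held 158 hMeDIP and 82 MeDIP reads (1.09, interval 0.827 to 1.44) and lay between the highest, at 102760001–102770000 (131 and 18 reads, 4.10), and one at 2.23. The 10 kb below the window were at 3.10 (2.12 to 4.67) and the 10 kb above it at 1.85 (1.31 to 2.65). In HoxD the ratio ran from 1.65 on 74545001–74555000 (155 and 53 reads) to 4.66 on 74565001–74575000 (157 and 19 reads). At the upper edge of HoxD the ratio was 1.69 (1.16 to 2.53) in the last segment of the window and 1.02 (0.686 to 1.53) in the first 10 kb beyond it, with overlapping intervals, and it was 1.70 in the first 10 kb below the window.

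Read density along the windows showed the same contrast as the sums. hMeDIP stayed between 0.432 and 1.45 RPM per kb in all 54 segments. The 600 mM eluate fell to 5 reads in a segment of HoxD at 74515001–74525000, where the 800 mM eluate also had 5, MeDIP 24, hMeDIP 113 and input 79. In HoxC the segment at 102820001–102830000 held 8 and 9 MethylCap reads, 18 MeDIP and 127 hMeDIP reads. Both segments were nearly free of captured DNA and still gave hMeDIP reads above the input level.

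**Figure D5:**
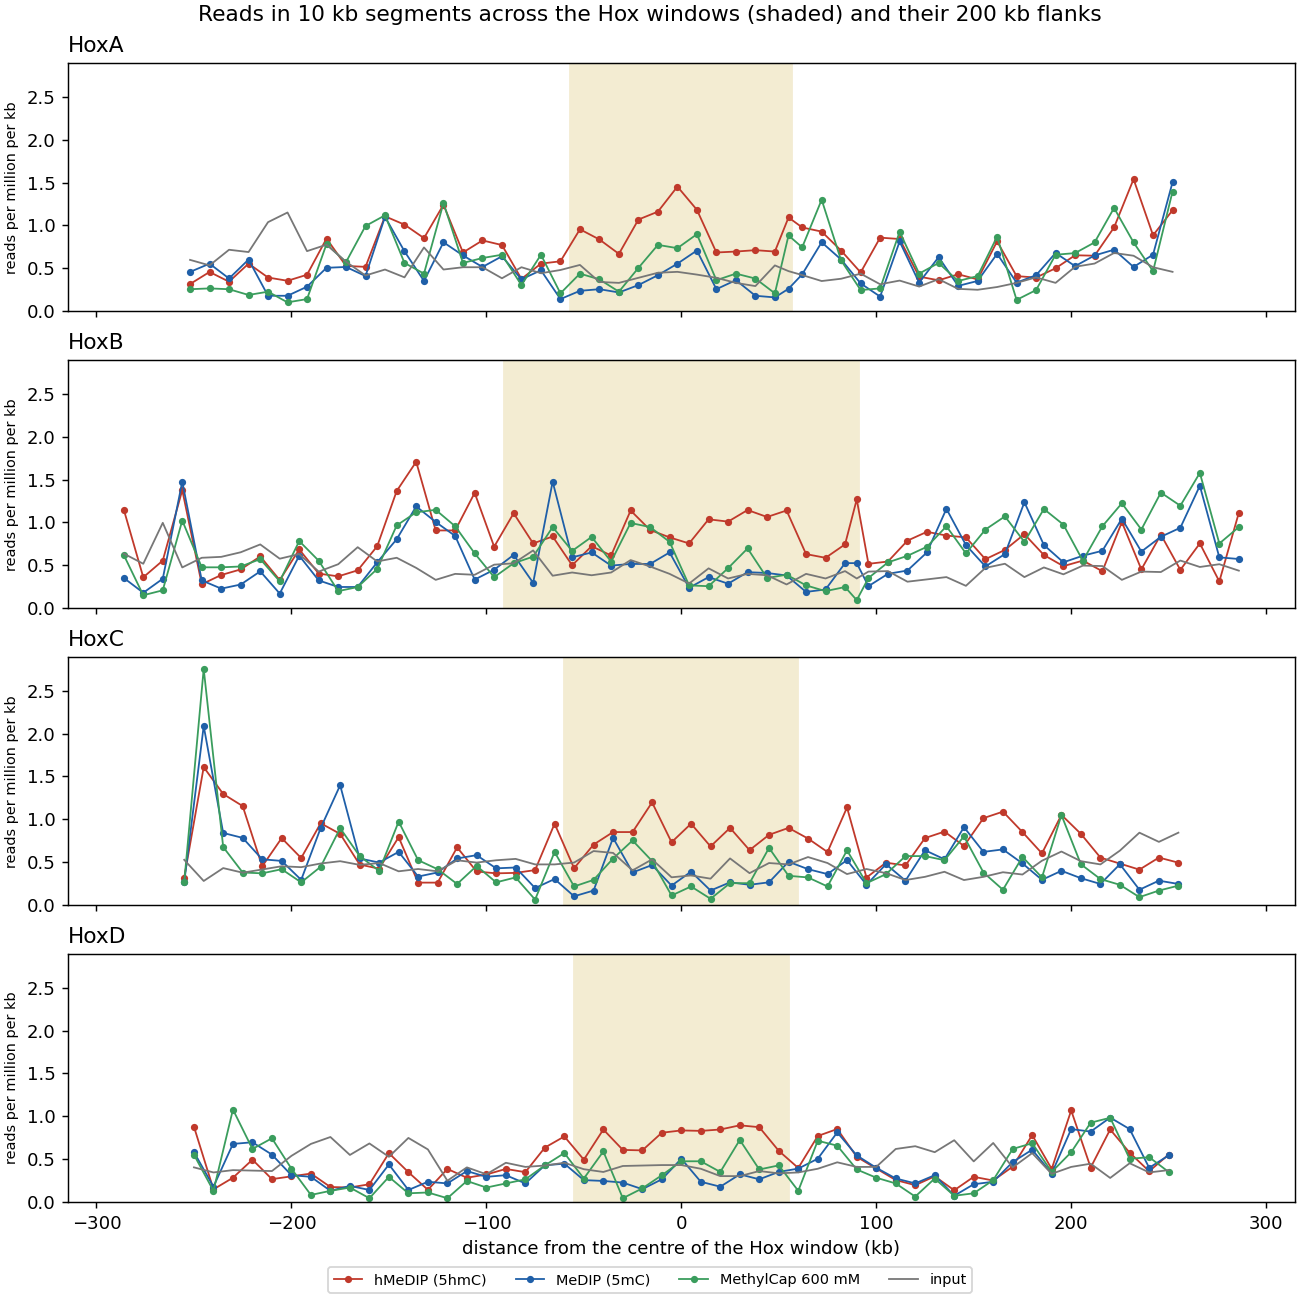
RPM per kb (y axis) of hMeDIP, MeDIP, the 600 mM eluate and input in 10 kb segments against the distance from the centre of each Hox window (x axis, kb), with the window shaded. Inside the windows the hMeDIP line runs above the MeDIP line except in the lower part of HoxB, and in the flanks the lines cross repeatedly.

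Across the 54 segments the hMeDIP and MeDIP densities went together only loosely, with Pearson's r of 0.312 and Spearman's rho of 0.519, against 0.638 and 0.641 in the 160 flank segments. The 2 eluates followed each other more closely, at 0.886 and 0.879 in the windows. Segments of 1 window share their libraries, neighbours and base composition, so these values describe the profiles only. hMeDIP and input had r of 0.127 in the windows.

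At the scale of single 1 kb bins the signal in the windows was moderate. A bin counted as enriched at 3-fold or more over input, with 0.5 RPM added to both libraries. Of the 525 window bins with a read in any library, 29 (5.52%) were enriched with the 5hmC antibody, where 1.93% of all bins with a read were. With the 5mC antibody 5 (0.952%) were enriched, against 2.5% of all bins. In the 600 mM eluate 14 (2.67%) were enriched, against 3.33% of all bins, and in the 800 mM eluate 25 (4.76%), against 4.27%. The flanks had 3.63% of bins enriched in hMeDIP, 3.20% in MeDIP, 3.88% at 600 mM and 5.70% at 800 mM, so the pooled windows were above their flanks in hMeDIP and below them in the others. Single clusters departed from this, since HoxC had 3.33% of bins enriched in hMeDIP against 4.5% in its flanks, and HoxD 7.34% at 800 mM against 3.52%.

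HoxA held 11 of the 29 enriched hMeDIP bins, HoxB 8, HoxD 6 and HoxC 4. Of the 5 enriched MeDIP bins, 4 were in HoxB and 1 in HoxA. Compared directly, hMeDIP exceeded MeDIP by 3-fold or more in 23 window bins (4.38%), against 1.69% of flank bins and 0.481% of all bins. MeDIP exceeded hMeDIP to that degree in 1 bin, in HoxB (0.190%), against 0.406% of all bins. Of these 23 bins, 9 lay in HoxA, 6 in HoxD, 5 in HoxB and 3 in HoxC. The direction was the same in most bins, since hMeDIP was above MeDIP in 448 of 525 (85.3%), against 58.3% in the flanks and 49.9% of all bins. Counts past a threshold depend on the pseudocount, and with 0.1 RPM in place of 0.5 the 23 bins became 160, against 7.37% of all bins, and with 1 RPM 1, against 0.0233%.

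Bins without reads were rarer in the pooled windows than in the genome but, for MeDIP and the eluates, more frequent than in the pooled flanks. MeDIP had no read in 72 window bins (13.7%), against 19.4% of all bins and 9.77% in the flanks. hMeDIP had none in 8 (1.52%), against 10.1% and 3.01%. The 600 mM eluate had none in 101 (19.2%), against 33.1% and 16.0%, and the 800 mM eluate none in 149 (28.4%), against 42.9% and 25.6%. By cluster, the order against the flanks was reversed in HoxA at 600 mM (15.8 against 17.3%) and 800 mM (19.3 against 25.3%) and in HoxD at 600 mM (22.9 against 26.4%). The longest stretches without a MeDIP read were 3 kb, at 102751001–102754000 in HoxC and 74495001–74498000 in HoxD. The longest stretch without a read of the 800 mM eluate was 7 kb, at 102785001–102792000 in HoxC, with 72 hMeDIP, 29 MeDIP, 7 reads at 600 mM and 51 input reads.

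The tenth of bins with most reads held 25.1 to 27.6% of hMeDIP reads, 31.9 to 36.9% of MeDIP reads, 34.8 to 49.9% at 600 mM and 39.6 to 49.2% at 800 mM. In input, the same share was at most 20.8%. The libraries differ in depth, and fewer reads per bin alone give a less even profile, so no order of libraries or clusters was read from these shares.

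Single bins show both kinds of sites. For ratios to input, bins with under 5 input reads were left out of the ranking, and for ratios between enriched libraries none were. In HoxA, the bin at 52162001–52163000 had the highest hMeDIP ratio to input, at 5.32-fold, with 77 hMeDIP, 15 MeDIP, 18 and 13 MethylCap (600 and 800 mM) and 7 input reads. A different bin 8 kb away, at 52170001–52171000, was highest in the other 3 libraries, at 4.84-fold in MeDIP, 3.96-fold at 600 mM and 5.14-fold at 800 mM, and was at 4.15-fold in hMeDIP. It held 58 hMeDIP, 39 MeDIP, 31 and 30 MethylCap and 7 input reads, so this site carried signal of all 4 kinds. The bin with the largest excess of the 5hmC over the 5mC antibody, at 52140001–52141000, held 56 hMeDIP and 3 MeDIP reads (raw ratio interval 3.42 to 52.6), 6 and 4 MethylCap reads and 2 input reads.

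In HoxB the bin at 96092001–96093000 was highest in MeDIP (3.96-fold) and at 600 mM (5.82-fold), with 34 hMeDIP, 31 MeDIP, 48 and 29 MethylCap and 7 input reads. The bin at 96077001–96078000, where MeDIP exceeded hMeDIP by 3-fold, held 5 hMeDIP and 20 MeDIP reads. At 96057001–96058000 hMeDIP reached 4.52-fold, its highest in this window, with 55 reads against 14 of MeDIP and 5 of input. The highest excess of hMeDIP over MeDIP was in the upper part, at 96198001–96199000, with 51 hMeDIP and 4 MeDIP reads.

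In HoxC the highest hMeDIP bin was at 102778001–102779000 (3.60-fold), with 49 hMeDIP, 12 MeDIP, 4 and 2 MethylCap and 7 input reads, and the highest MethylCap bin at 102857001–102858000 (3.52-fold at 600 mM and 3.01-fold at 800 mM) held 34 hMeDIP but 4 MeDIP reads. The bin at 102840001–102841000 was without MeDIP reads but had 27 with hMeDIP, and the raw ratio interval starts at 3.85. In HoxD the highest hMeDIP bin, at 74561001–74562000 (4.34-fold), held 61 hMeDIP, 6 MeDIP, 13 and 7 MethylCap and 7 input reads. The bin with most excess of hMeDIP over MeDIP, at 74577001–74578000, held 45 hMeDIP and 2 MeDIP reads. The highest MeDIP ratios of HoxC and HoxD, 2.27-fold at 102849001–102850000 and 2.21-fold at 74554001–74555000, stayed under the threshold of 3. These bins were picked as extremes, so their values describe them and test nothing.

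The salt steps differed little in the Hox windows. The 800 mM eluate was 1.15-fold the 600 mM eluate in HoxA (492 against 597 reads, interval 1.02 to 1.30) and 1.23-fold in HoxD (393 against 444, 1.07 to 1.42). It was 1.08-fold in HoxB (809 against 1047, 0.981 to 1.18) and 0.988-fold in HoxC (317 against 447, 0.853 to 1.14), where a difference was not detectable at this depth. Against the flanks, the change was 1.18-fold in HoxD (1.01 to 1.38), and in the other windows the interval included 1. Of the tiles of the same length, 11.9, 19.2, 45.5 and 6.15% were at or above HoxA, HoxB, HoxC and HoxD, so none of these ratios was extreme.

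Of the 6 pairs of clusters, HoxC over HoxD (0.801-fold, 0.654 to 0.981) was the only one with an interval that excluded 1. Along the windows the segment of HoxD at 74565001–74575000 had 37 reads at 600 mM and 52 at 800 mM (1.96-fold, 1.26 to 3.07). It was also the segment with the largest excess of hMeDIP over MeDIP in that window. Of the 51 segments with at least 20 reads in the eluates together, the interval lay above 1 in 4 (2 in HoxA and 1 each in HoxB and HoxD). In the flanks this held in 2 of 39 segments around HoxA, 2 of 40 around HoxB, 3 of 38 around HoxC and 2 of 33 around HoxD, so the windows were close to their surroundings. In single bins, the 800 mM eluate exceeded the 600 mM eluate by 3-fold or more in 1 (0.190%), against 0.221% of all bins, and the reverse held in 0, against 0.111%. The former was in HoxB at 96184001–96185000, with 22 reads at 800 mM and 6 at 600 mM.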

How the data were processed

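The 5 libraries measured DNA captured for 5mC or 5hmC, and an input. The alignment used BWA 0.5.8 and the mm9 build, per the submitters' processing notes. The deposited files list 1 read of 35 bp per line with a count of 1, which the authors did not normalize; at most 1 read (MethylCap: 2) per position and strand is present, and the treatment of duplicates is not stated there. No source used here gives the meaning of another deposited column (0 or 1). Depth ranged from 7507520 to 18676265 reads on chromosomes 1 to 19 and X. Reads were placed by their midpoint and scaled to the library's reads on these chromosomes (RPM). Ratios of sums used raw reads, and ratios of bins a pseudocount of 0.5 RPM. Intervals are exact (Clopper-Pearson on the conditional binomial, or conditional odds ratios), at 95%, in Python 3.11.15 with scipy 1.17.1, and hold counting error alone, as the reads carry no molecular identifiers and need not be independent molecules. On simulated reads, 95.1% of 6000 window intervals of hMeDIP over MeDIP held the true ratio. These reads were drawn as Poisson counts, which the interval assumes, so this checks the calculation and says nothing about the libraries. Bins named are the highest per window and enriched library over input (at least 5 input reads), and the highest and lowest of each direct ratio. Segments named are the extremes of each library or ratio (at least 20 reads). Those at window edges, in the flanks and in the lower part of HoxB were added after the values were seen. The windows, genes and lists were chosen with earlier results of these data known. No mm9 gene models were used here, so no reads were assigned to genes. Gene order and promoters are from RefSeq, GRCm38.p6, matched by symbol (all 38 genes by order, 22 by promoter). Alternatives were a shifted midpoint, another scaling, column filtering, other flanks, trimmed windows, bin size, thresholds, pseudocounts and thinning.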

Additional observations from a re-analysis of the deposited data

How the results depend on the processing

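With 1 library per group no replicate could be left out, and intervals and limits cover counting error only. No paired analysis was possible because each group has a single library and no result comes from a test between replicates. Of 134 alternative values, 80 stayed within the interval of the reported value (for counts, within 1.5 times). Shifting midpoints by 100 bp, using only reads with 0 in the unexplained column, trimming the windows by 10 kb and leaving out the bin with most MeDIP reads (added after seeing the data) moved no window or flank ratio outside its interval. No hMeDIP or MeDIP read had a 1 in that column. The filter could thus change only the input (8.38% of reads) and the eluates (7.88% at 600 mM and 8.22% at 800 mM).

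In bins with at least 3 input reads, the median ratio to input was 0.839 for hMeDIP, 0.834 for MeDIP, 0.757 at 600 mM and 0.704 at 800 mM. When libraries were scaled to bring this median to 1, the ratios of the antibodies and of the eluates kept within their intervals, but every ratio to input rose. hMeDIP became 2.69-fold in HoxA, 2.45 in HoxB, 2.08 in HoxC and 2.37 in HoxD. MeDIP became 0.968-fold, 1.40, 0.861 and 0.875 in the same order. The 600 mM eluate became 1.61-fold, 1.72, 1.02 and 1.35, and the 800 mM eluate 1.99-fold, 2.00, 1.08 and 1.79, so both HoxC values turned from below to above input. With flanks of 100 kb the density of the 4 windows over flanks was 0.761 for MeDIP, 0.899 at 600 mM, 0.964 at 800 mM and 0.943 for input, nearer to 1 than with 200 kb. The lower and upper parts of HoxB, added after seeing the data, were at 1.28 and 2.65 in hMeDIP over MeDIP.

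Counts of bins depend on the setting by construction. Bins enriched over input in hMeDIP, MeDIP, the 600 mM and the 800 mM eluate numbered 119, 27, 51 and 68 with a pseudocount of 0.1 RPM, 6, 2, 4 and 6 with 1 RPM, 112, 21, 44 and 68 at 2-fold, and 3, 1, 3 and 2 at 5-fold. The shares of all bins were 7.43, 8.42, 9.66 and 10.3% with 0.1 RPM, 0.539, 0.779, 0.980 and 1.54% with 1 RPM, 6.62, 7.71, 9.36 and 10.1% at 2-fold, and 0.298, 0.466, 0.593 and 0.875% at 5-fold. In hMeDIP the share of window bins was above, and in MeDIP below, that of all bins under these 4 settings. At 800 mM it was below with 1 RPM (1.14%) and at 5-fold (0.381%), unlike with the reported setting, and at 600 mM it was 9.71% with 0.1 RPM, level with all bins. With at least 5 input reads the enriched bins were 14 in hMeDIP, 7 at 600 mM and 14 at 800 mM, and with 500 bp bins 9 in MeDIP. The share of all bins was not computed for these settings, where the number of bins differs. These counts are therefore not set against the others. Bins higher with the 5hmC antibody numbered 160 with 0.1 RPM, 1 with 1 RPM and 126 at 2-fold. These were 30.5, 0.190 and 24.0% of window bins, against 7.37, 0.0233 and 3.69% of all bins. Bins higher with the 5mC antibody numbered 3, 0 and 4 under these 3 settings (0.571, 0 and 0.762%, against 5.01, 0.0495 and 3.19% of all bins). With 500 bp bins, 13 were higher with the 5hmC antibody, again without a share of all bins. Bins higher at 800 mM numbered 31, 0 and 13 with 0.1 RPM, with 1 RPM and at 2-fold. These were 5.90, 0 and 2.48% of window bins, against 3.95, 0.119 and 1.46% of all bins. Bins higher at 600 mM numbered 30 with 0.1 RPM (5.71%, against 6.16% of all bins) and 7 at 2-fold (1.33%, against 1.84%).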
